A study of Rattus norvegicus with 4 samples.

Results

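The DNA replication and mitosis genes were followed in pancreatic islets isolated from Sprague Dawley rats on postnatal day 14. Members were chosen by gene name, as genes that act in S phase, when DNA is copied, or around mitosis. Of the 46 names, 44 had a probe, out of 26456 gene names on the array. Cdc2 is the older name of Cdk1 and had no probe of its own, and no probe carried the name Mki67, so Mki67 was not analysed here. In the intrauterine growth restriction (IUGR) group, both uterine arteries of the dam were ligated at embryonic day 18, and dams of the control group had sham surgery. Pups of both groups were born without intervention. Each of 4 two-colour arrays on 1 slide held amplified cDNA of 1 IUGR sample and 1 control sample, with IUGR in the red dye Cy5 on arrays 1 and 2 and in the green dye Cy3 on arrays 3 and 4. IUGR replicate 2 shared array 1 with control replicate 1, IUGR 1 shared array 2 with control 2, IUGR 4 shared array 3 with control 3, and IUGR 3 shared array 4 with control 4. The labels speak of biological replicates but give neither the sex of the pups nor how many animals or litters a sample came from, so p-values measure only the spread between these samples.

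Dividing cells switch these genes on in sequence. E2F factors, released from the retinoblastoma protein, drive the genes that license origins, make nucleotides and copy DNA. The MuvB complex, with B-Myb and then FOXM1, drives the mitotic genes, many of which carry CCAAT boxes and a cell cycle homology region near their start. In young rodents, division of existing beta cells is a main source of new beta cells, and it declines as the animals mature. Islets are a mixture of cells, so these transcripts can come from cells of any type present. Fewer dividing cells cannot be told apart from less RNA per cell.

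The promoters of the members share sequence features that the choice by name did not use. RefSeq promoter windows of the rat build GRCr8 run from 250 bases before to 50 bases after a gene's start. A window was found for 34 of the listed genes, Mki67 included, with 35 windows in all. The CCAAT box, searched as CCAAT on both strands, was in 24 windows (68.6%) and in 37.5% of all 33469 windows. The core of the cell cycle homology region, searched as TTTGAA on both strands, was in 20 (57.1%) and in 18.3% of all. CCAAT and TTTGAA stood together in 15 (42.9%) and in 7.41% of all. An E2F-type element, searched as TTGGCGC or TTCCCGC on both strands, was in 10 (28.6%) and in 6.26% of all. A match is a description of letters and does not show binding. The windows printed here were picked after the matches were known: Cdk1, the mitotic kinase, has all of these motifs (chr20:19265043-19265342, plus strand), Top2a has CCAAT boxes and TTTGAA (chr10:84473044-84473343, minus strand), and Mcm6 has CCAAT boxes and E2F-type elements (chr13:42404303-42404602, minus strand). Capitals mark the matches.
Cdk1 promoter: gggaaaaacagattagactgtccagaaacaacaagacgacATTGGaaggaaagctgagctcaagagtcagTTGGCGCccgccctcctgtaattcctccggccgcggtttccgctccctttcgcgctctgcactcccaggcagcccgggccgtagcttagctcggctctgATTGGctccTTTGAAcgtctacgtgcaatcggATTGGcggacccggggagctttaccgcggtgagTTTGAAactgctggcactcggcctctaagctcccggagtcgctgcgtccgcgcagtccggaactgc
Top2a promoter: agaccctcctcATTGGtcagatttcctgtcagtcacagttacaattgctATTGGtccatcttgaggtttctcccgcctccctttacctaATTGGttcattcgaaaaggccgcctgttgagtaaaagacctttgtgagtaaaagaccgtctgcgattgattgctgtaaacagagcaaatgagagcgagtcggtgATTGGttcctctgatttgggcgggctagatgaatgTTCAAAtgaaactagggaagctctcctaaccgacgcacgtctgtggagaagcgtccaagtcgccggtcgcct
Mcm6 promoter: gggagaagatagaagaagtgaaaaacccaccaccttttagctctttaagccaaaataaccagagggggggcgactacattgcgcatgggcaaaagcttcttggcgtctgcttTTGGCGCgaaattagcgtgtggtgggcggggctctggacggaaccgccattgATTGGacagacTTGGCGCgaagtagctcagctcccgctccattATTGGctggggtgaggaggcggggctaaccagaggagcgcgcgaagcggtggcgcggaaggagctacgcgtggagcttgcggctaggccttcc

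Each member was read by 1 or 2 probes of 60 bases, 55 probes in all. Probes are printed for 6 of the genes described below, at positions on the rat build rn4 given in the scanner files. They lie at chr15:45236866-45237353 (Pbk, plus strand), chr3:105115671-105115730 (Bub1b, plus), chr20:20043755-20043814 (Cdk1, plus), chr2:31574809-31575048 (Ccnb1, minus), chr13:41052148-41052207 (Mcm6, minus) and chr1:159936096-159937814 (Rrm1, plus). The spans of Pbk, Ccnb1 and Rrm1 are 488, 240 and 1719 bases, longer than the probes themselves. In each of the 6 sequences at least 1 sense reading frame was free of stop codons, as in many other member probes. The Pcna probe, not printed, had 0 such frames.
Pbk probe: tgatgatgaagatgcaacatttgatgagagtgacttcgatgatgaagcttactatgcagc
Bub1b probe: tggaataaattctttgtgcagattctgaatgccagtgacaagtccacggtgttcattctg
Cdk1 probe: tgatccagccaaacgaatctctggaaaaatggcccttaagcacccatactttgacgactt
Ccnb1 probe: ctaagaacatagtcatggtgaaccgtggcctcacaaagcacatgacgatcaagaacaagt
Mcm6 probe: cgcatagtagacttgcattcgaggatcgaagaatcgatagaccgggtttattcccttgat
Rrm1 probe: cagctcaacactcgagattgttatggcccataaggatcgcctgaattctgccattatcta

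The arrays differed in brightness. The median over probes of the mean signal, before background correction, was between 72.9 and 180 intensity units in the IUGR channels and between 62.0 and 354 in the control channels. The IUGR channel was the brighter one on array 1 (log2 ratio of the medians 1.54) and the dimmer one on arrays 2, 3 and 4 (-0.91, -1.97 and -1.38). No spot was saturated (0 on each array). Ins1, Ins2, Iapp, Gcg, Sst and Ppy, the hormone and amyloid peptide genes that define islets, were well above background in all 8 channels. Below, a level is the log2 intensity of 1 sample's channel after normalization, and a ratio is the log2 of IUGR over control. Levels are compared within a probe only.

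No member passed the test between IUGR and control islets. All 44 members with a probe were well above background in all 8 channels, as were 80.5% of the genes tested, so the filter on dim probes removed no member. Member ratios ran from -0.44 to 0.34 with a median of -0.03, beside a median of 0.01 over all 20012 genes tested. Limma, a linear model fitted over all genes, called 0 members at a Benjamini-Hochberg adjusted p under 0.05, and 0 of all genes (0%). The smallest adjusted p of a member was 0.339, which was also the smallest of all genes. The adjustment gave this same value to members of unlike unadjusted limma p, such as Pbk (0.012) and Cdc6 (0.078). It therefore does not rank the genes that share it. At an unadjusted p under 0.05, limma had 2 members lower in IUGR (4.55%, beside 6.55% of all genes) and 0 higher (beside 7.14% of all genes), so neither count was above its background. Without array 1 there were 10 such members, and without array 3 there were 0, out of 6199 and 464 such genes in all.

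The limma intervals give the precision of the ratios. The 95% interval of a ratio had a median half-width of 0.23. It lay between -0.5 and 0.5 in 38 of 44 members and between -1 and 1 in all 44. The 6 members with wider reach were Pcna, Pbk, Mcm6, Rrm1, Birc5 and Ccna2, and the lowest and highest bounds were -0.84 (Pcna) and 0.75 (Birc5). With these settings no member (0 of 44) had a ratio beyond 0.5 in size, where 5.94% of all genes did. Other settings took some members past it and brought others nearer 0, so the intervals hold for this processing only. Median centring gave -0.77 for Pcna, -0.60 for Pbk, 0.60 for Cdt1 and 0.70 for Rrm1. Agilent's processed signals gave 0.72 for Rrm1 and -0.54 for Pbk, and a normexp offset of 0 gave 0.51 and -0.52. Without array 1, the ratios of Pcna, Pbk and Birc5 were -0.63, -0.56 and 0.54. Keeping outlying local backgrounds as measured gave 0.14 for Mcm6, 0.11 for Rrm1, -0.28 for Pbk and -0.15 for Bub1b. With that setting Pcna stood at -0.44 and Cdk1 at -0.13, slightly further from 0. The SD of a member's ratio over single arrays was 0.18 at the median and at most 0.44.

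Lower ratios were more frequent than higher ones, but not on every array. Of the members, 28 had a ratio below 0 (63.6%, beside 47.1% of all genes) and 16 above 0 (36.4%, beside 52.9%). The median member ratio was -0.10, 0.02, -0.02 and -0.11 on arrays 1 to 4, a mean of -0.05 ± 0.06 (SD, n = 4 arrays). Arrays 1 and 4, of opposite dye orientation, held the lower medians. Members above 0 numbered 13 on array 1 (29.5%, beside 52.7% of all genes), 24 on array 2 (54.5%, beside 52.1%), 21 on array 3 (47.7%, beside 52.0%) and 15 on array 4 (34.1%, beside 49.1%). Without array 1 the split was 22 higher and 22 lower, without array 2 it was 10 and 34, and with median centring in place of loess it was 11 and 33.

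**Figure D1:**
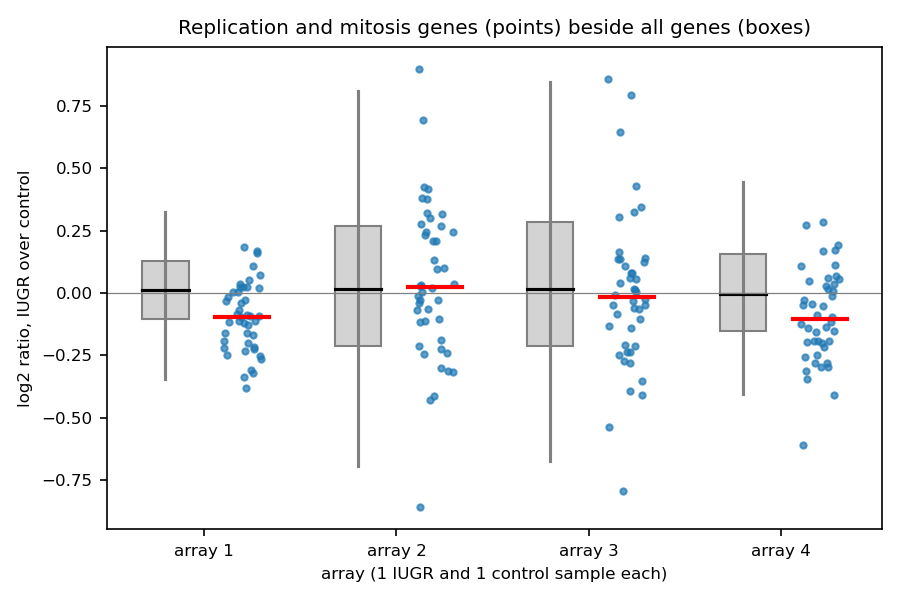
Log2 ratio of IUGR over control (vertical axis) on each of the 4 arrays, with the 44 replication and mitosis genes as points and their median as a bar, beside all 20012 genes tested as boxes (quartiles and median). The member medians lie between -0.11 and 0.02, and the points spread to both sides of 0 on every array.

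A sign shared by all 4 arrays was found in 9 members. Cdc6, Top2a, Cenpf, Nuf2, Ttk, Kif11 and Nusap1 were below 0 on all of them (7 of 44, 15.9%, beside 9.69% of all genes), and Birc5 and Cdt1 were above 0 (2 of 44, 4.55%, beside 11% of all genes). For Top2a and Cenpf this held for the brighter probe only: on arrays 2 and 3 the other probe was at 0.53 and 0.58 (Top2a) and at 0.45 and 0.69 (Cenpf). In 13 members array 1 stood against the other 3 arrays (29.5%, beside 31.7% of all genes). The means of the 2 dye orientations had opposite signs in 18 members (40.9%, beside 39.4% of all genes). Across the 44 genes, Pearson's r of array 1 was -0.09 with array 2, -0.39 with array 3 and -0.53 with array 4, whereas arrays 3 and 4 had an r of 0.77. Over all genes the same correlations were 0.13, -0.23, -0.30 and 0.63. These correlations are across genes, which share an array's labelling and brightness and are not independent.

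**Figure D2:**
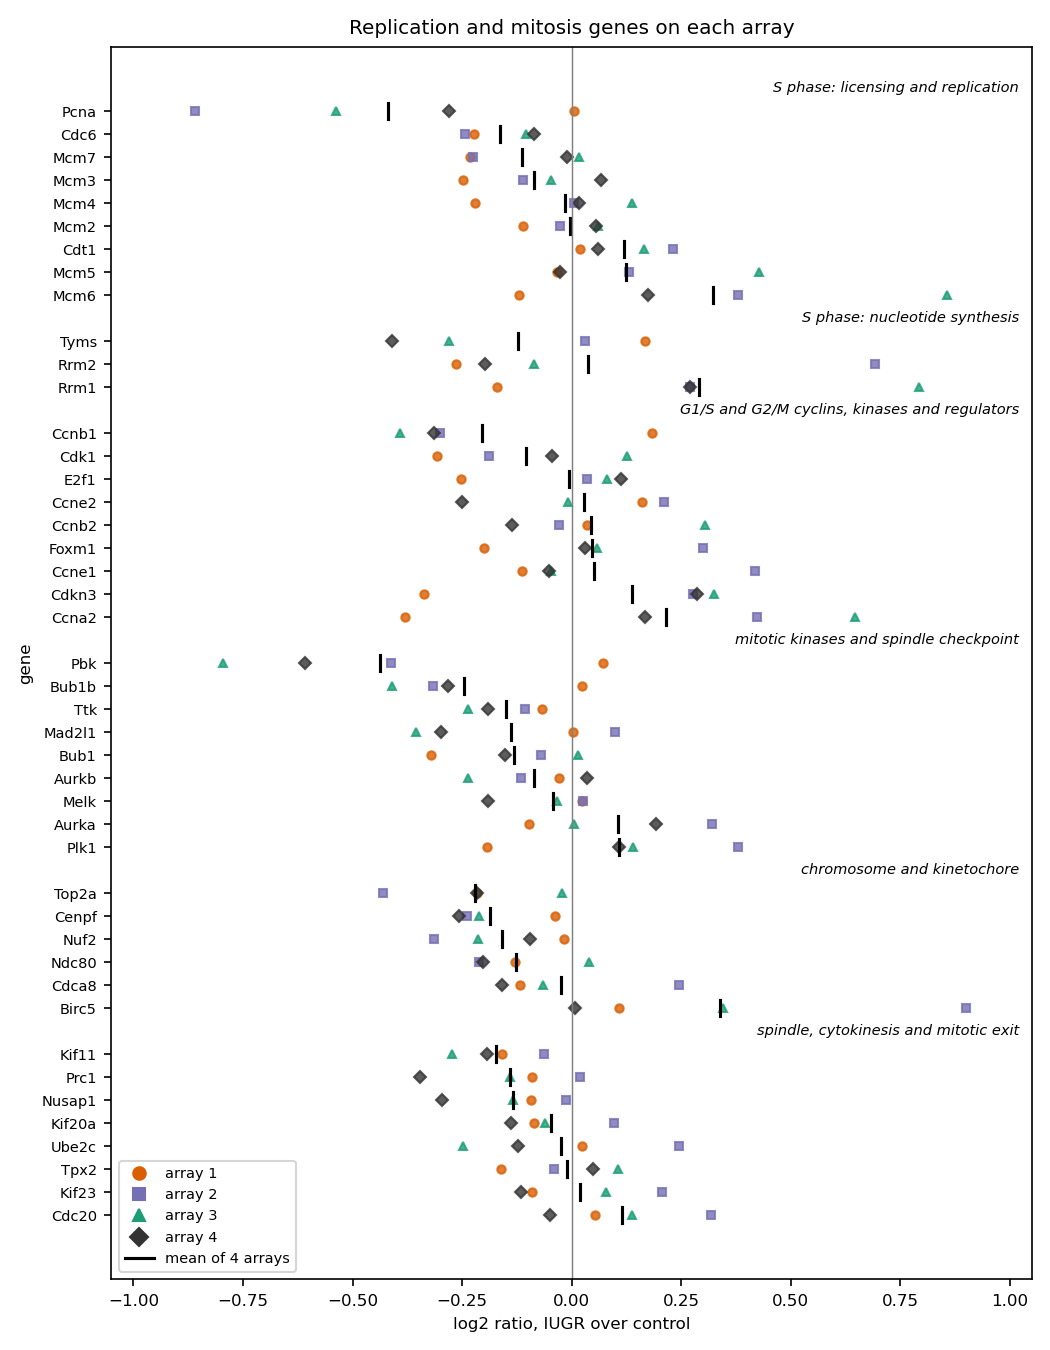
Log2 ratio of IUGR over control (horizontal axis) of each of the 44 genes (rows, grouped by role) on arrays 1 to 4 (symbols), with the mean of the 4 arrays as a black bar. Means run from -0.44 (Pbk) to 0.34 (Birc5), and array 1 lies to the other side of 0 from the rest for Pbk, Bub1b, Ccnb1, Ccna2, Mcm6 and Rrm1.

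Genes that license and copy DNA had no common direction. Of 9, 3 had a ratio above 0 and 6 below, with a median of -0.02, and limma called 0. Pcna, the sliding clamp that holds DNA polymerases on their template, had levels of 11.22, 11.57, 11.59 and 11.48 in IUGR replicates 1 to 4 and 11.56, 12.07, 12.02 and 11.88 in control replicates 1 to 4. Control replicates 2, 3 and 4 lay above every IUGR sample, and control replicate 1 lay among them. The Pcna ratio was -0.42 ± 0.16 (moderated SE, n = 4 arrays; limma adjusted p = 0.339), -0.63 without array 1 and -0.20 without array 2. Mcm6, a subunit of the MCM helicase that unwinds DNA, went the other way, with levels of 8.29, 8.90, 8.31 and 8.70 in IUGR and 9.02, 7.90, 7.85 and 8.14 in control. Control replicate 1 was the highest of the 8 samples and the other controls the lowest 3. The Mcm6 ratio was 0.32 ± 0.16 (moderated SE, n = 4 arrays; limma adjusted p = 0.341) and 0.15 without array 3.

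The other helicase subunits had ratios nearer 0 by their brightest probes. Mcm2 had a ratio of -0.01 ± 0.07 (moderated SE, n = 4 arrays), which was -0.31 with median centring, and Mcm3, Mcm4, Mcm5 and Mcm7 lay between -0.11 and 0.13. Second, dimmer probes lay further from 0, at 0.28 (Mcm2), -0.25 (Mcm3) and -0.29 (Mcm4), each with the same sign on all 4 arrays. Cdc6 and Cdt1 load the helicase onto origins. Cdc6 was at -0.22, -0.24, -0.11 and -0.09 on arrays 1 to 4, a ratio of -0.16 ± 0.07 (limma adjusted p = 0.339), which became 0.0066 with median centring. Cdt1 was at 0.02, 0.23, 0.17 and 0.06, a ratio of 0.12 ± 0.08 (limma adjusted p = 0.442) that was 0.065 without array 2, 0.43 with Agilent's processed signals and 0.60 with median centring. The 2 loaders thus lay on opposite sides of 0, and neither difference passed the test.

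The nucleotide synthesis genes were 3, with 2 above 0 and 1 below. Rrm1, the large subunit of ribonucleotide reductase, had levels of 6.95, 7.25, 7.04 and 7.33 in IUGR and 7.42, 6.68, 6.54 and 6.77 in control. As with Mcm6, control replicate 1 stood highest and the other controls lowest. The Rrm1 ratio was 0.29 ± 0.13 (limma adjusted p = 0.339), and 0.16 without array 3. Rrm2, the small subunit, was at -0.26, 0.69, -0.08 and -0.20 on arrays 1 to 4, with array 2 apart from the rest. Its ratio of 0.04 ± 0.17 was -0.20 without array 2 and 0.28 without array 1. Tyms, which makes thymidylate, was above 0 with IUGR in Cy5 (0.17 and 0.03) and below 0 with IUGR in Cy3 (-0.28 and -0.41), with a ratio of -0.12 ± 0.08 (limma adjusted p = 0.415).

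Cyclins, kinases and their regulators had 6 ratios above 0 and 3 below, with a median of 0.04. Ccnb1, the mitotic cyclin B1, had levels of 9.03, 9.42, 8.73 and 9.07 in IUGR and 9.23, 9.33, 9.47 and 9.04 in control, and the groups overlapped. On arrays 1 to 4 it was at 0.18, -0.30, -0.39 and -0.31, a ratio of -0.21 ± 0.11 (limma adjusted p = 0.357) that was -0.08 without array 2 and -0.33 without array 1. Cdk1, the kinase it activates, had levels of 11.93, 12.06, 12.11 and 12.28 in IUGR and 12.37, 12.12, 12.16 and 12.16 in control. The groups overlapped, and the Cdk1 ratio was -0.10 ± 0.08 (limma adjusted p = 0.483), and -0.45 with median centring. Ccna2, the cyclin of S phase and early mitosis, was at -0.38, 0.42, 0.65 and 0.17, a ratio of 0.21 ± 0.17 (limma adjusted p = 0.488) that was -0.09 with median centring, 0.41 without array 1 and 0.013 without array 2. A second Ccna2 probe had a mean ratio of 0.02. Of the factors that drive the programme, E2f1 had a ratio of -0.01 ± 0.09 and Foxm1, the late activator, of 0.05 ± 0.11, but with median centring they stood at -0.33 and -0.18, and a second E2f1 probe at 0.17.

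Mitotic kinases and spindle checkpoint genes had 7 ratios below 0 and 2 above, with a median of -0.13 and array medians of -0.03, -0.07, -0.24 and -0.19. Both members at an unadjusted p under 0.05 were here. Pbk, a mitotic kinase of dividing cells, had levels of 8.54, 8.63, 8.01 and 8.23 in IUGR and 8.56, 8.95, 9.03 and 8.61 in control. The 4 IUGR samples were low and the controls high, except that IUGR replicate 2 reached just above control replicates 1 and 4. The Pbk ratio was -0.44 ± 0.11 (limma adjusted p = 0.339), with 0.07, -0.41, -0.80 and -0.61 on arrays 1 to 4. Bub1b, a checkpoint protein that delays anaphase, had levels of 7.75, 7.98, 7.64 and 7.70 in IUGR and 7.95, 8.07, 8.11 and 7.92 in control. IUGR replicate 2 lay within the control range and the other 3 IUGR samples below it. The Bub1b ratio was -0.25 ± 0.09 (limma adjusted p = 0.339), and -0.16 without array 2. Ttk, the kinase that starts the checkpoint, was below 0 on all arrays at -0.15 ± 0.07 (limma adjusted p = 0.346). The remaining 6 lay between -0.14 (Mad2l1) and 0.11 (Plk1).

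**Figure D3:**
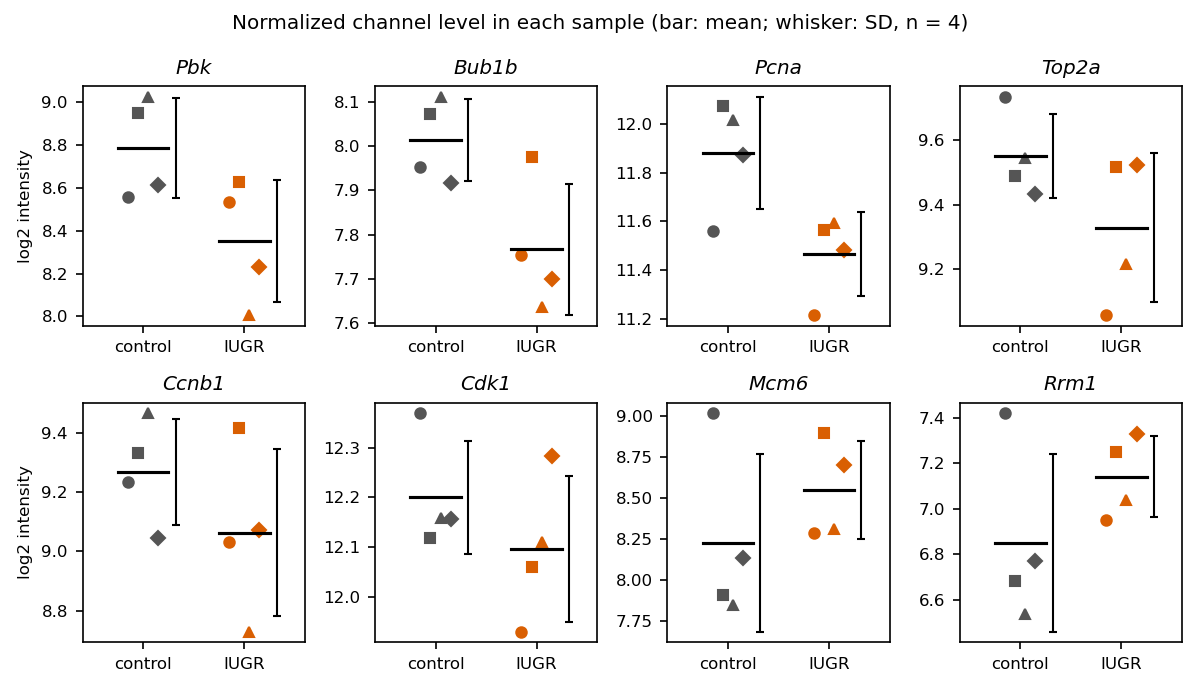
Log2 intensity (vertical axis) of 8 genes in the 4 control and 4 IUGR samples (symbols mark replicate numbers 1 to 4; bar, mean; whisker, SD, n = 4). The vertical scales differ between panels, the groups overlap in all 8 panels, and control replicate 1 (circle) is the lowest control for Pcna and the highest for Mcm6 and Rrm1.

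Chromosome and kinetochore genes had 5 ratios below 0 and 1 above, with a median of -0.14. Top2a, the topoisomerase that untangles chromosomes and is widely used as a proliferation marker, had levels of 9.06, 9.52, 9.22 and 9.52 in IUGR and 9.73, 9.49, 9.54 and 9.43 in control. IUGR replicates 2 and 4 lay within the control range and the other 2 below it. The Top2a ratio was -0.22 ± 0.09 (limma adjusted p = 0.339), with a second probe at 0.27. Cenpf, a kinetochore protein of G2 and mitosis, was at -0.19 ± 0.08 (limma adjusted p = 0.339), with a second probe at 0.28, and Nuf2, of the complex that binds microtubules, at -0.16 ± 0.09 (limma adjusted p = 0.373), which was -0.086 without array 2. Birc5, or survivin, a subunit of the chromosomal passenger complex, had levels of 9.40, 9.17, 8.60 and 8.90 in IUGR and 9.06, 8.51, 8.56 and 8.59 in control. It had the highest ratio of the members, 0.34 ± 0.16 (limma adjusted p = 0.339), with 0.11, 0.90, 0.34 and 0.01 on arrays 1 to 4 and 0.14 without array 2. Array 2 thus held most of its difference.

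Spindle, cytokinesis and mitotic exit genes had 6 ratios below 0 and 2 above, with a median of -0.04. Nusap1, which bundles spindle microtubules, was the 1 member whose channel levels did not overlap between the groups (2.27%, beside 1.59% of all genes with IUGR below control, and 0 members beside 1.4% with IUGR above). Its levels were 10.06, 10.02, 9.92 and 9.98 in IUGR and 10.11, 10.07, 10.12 and 10.21 in control. The gap between the groups was small, and the ratio was -0.13 ± 0.08 (limma adjusted p = 0.388). Kif11, the motor that separates spindle poles, was at -0.17 ± 0.08 (limma adjusted p = 0.339), and Prc1, which bundles the midzone, at -0.14 ± 0.08 (limma adjusted p = 0.388).

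For 11 members, 2 probes read the same gene, and in 6 of them the probes lay on opposite sides of 0. The brighter probe, which stands for the gene above, was the lower one in 5 of these 6. For Top2a the brighter probe had a mean ratio of -0.22 and the dimmer one 0.27. For Cenpf the values were -0.19 and 0.28, for Prc1 -0.14 and 0.31, for Mcm2 -0.01 and 0.28 and for E2f1 -0.01 and 0.17. Rrm2 ran the other way, at 0.04 and -0.14. The dimmer probe lay nearer the 5′ end of the transcript in 10 of the 11 genes, by the positions in the scanner files. The probe nearer the 5′ end had the higher ratio in 7 of 11 and in 5 of the 6 of opposite sign. The part of RNA quality or labelling in this was not tested. With the mean of all probes in place of the brightest, the members split into 20 higher and 24 lower, and Top2a stood at 0.02 and Cenpf at 0.05.

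**Figure D4:**
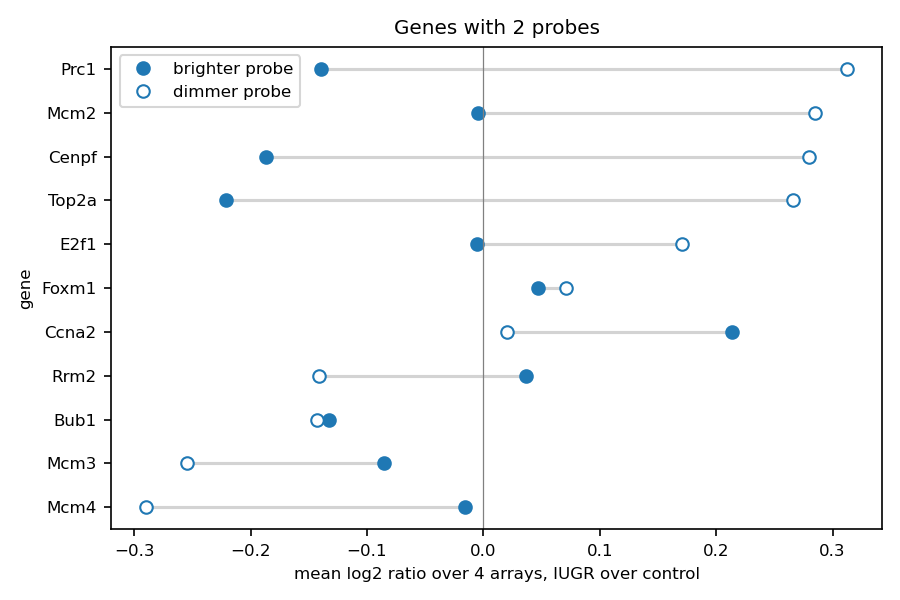
Mean log2 ratio of IUGR over control over 4 arrays (horizontal axis) of the brighter (filled) and dimmer (open) probe of the 11 genes with 2 probes. The line between the probes crosses 0 for Prc1, Mcm2, Cenpf, Top2a, E2f1 and Rrm2.

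Other genes of the same pathways, from lists drawn up with earlier results of these data known, also gave no call by limma (0 in each list). Of 34 further replication genes, 11 had a ratio above 0 and 23 below, with a median of -0.07. Orc2l, a subunit of the origin recognition complex, was at 0.26 and Pole2, a subunit of DNA polymerase epsilon, at -0.33 (limma adjusted p = 0.339 for both). Of 43 further mitosis genes, 20 were above 0 and 23 below, with a median of -0.02. At an unadjusted p under 0.05, limma had 6 of these lower (beside 6.55% of all genes) and 0 higher (beside 7.14%). Among the 6, Depdc1 was well above background in 0 of 4 IUGR and 3 of 4 control channels, so it entered the test only through the group where it was high. The lowest p values belonged to Kif18a, a motor that aligns chromosomes, at -0.39 and Pttg1, or securin, at -0.32 (limma adjusted p = 0.339 for both). Pttg1 was below 0 on all arrays, at -0.19, -0.36, -0.37 and -0.36.

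Among 16 RB, E2F and DREAM factors, 8 were above 0 and 8 below, with a median of 0.02. Rb1, the retinoblastoma protein that holds E2F in check, was at -0.69 ± 0.27 and E2f8, a repressor of E2F targets, at -0.37 ± 0.13 (limma adjusted p = 0.339 for both). Rb1 was at -0.02, -1.38, -1.10 and -0.28 on arrays 1 to 4, so arrays 2 and 3 held most of its difference. Among 13 D cyclins and CDK inhibitors, 8 were above 0 and 5 below, with a median of 0.15. Cdkn1a, the CDK inhibitor p21, was at 0.54 ± 0.20 and Ccnd3, cyclin D3, at 0.38 ± 0.11 (limma adjusted p = 0.339 for both). Ccnd3 was above 0 on all arrays and Cdkn1a on 3 of 4.

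Markers of the cell types that an islet preparation can hold were read beside the members, with no call by limma (0 of all genes). Of 10 T and NK cell markers, 9 had a ratio below 0, with array medians of 0.06, -0.12, -1.01 and -0.44. Their summed intensity, not in log2, adds unlike probes and so weighs the brightest most. It ran from 1295 to 1566 units in IUGR and from 1556 to 5715 in control. Of the 10 markers, 4 were well above background in all 8 channels. Cd2, Cd3e and Cd8a, all below 0, were well above background in 0, 1 and 1 of 4 IUGR channels. Each was so in 3 of 4 control channels and thus entered the test only through the group where it was high. Of 5 B cell markers, 4 were below 0 (summed intensity 846 to 1274 in IUGR and 869 to 2527 in control). Ms4a1 was well above background in 0 of 4 IUGR channels. Of 11 endocrine markers, 7 were above 0, with array medians of 0.20, 0.45, -0.34 and -0.38. The endocrine medians were thus above 0 with IUGR in Cy5 and below 0 with IUGR in Cy3. All 7 endothelial markers were above 0, and their summed intensity overlapped between the groups (24359 to 35998 in IUGR and 17797 to 37871 in control). Mean ratios above 0 were also found in 9 of 9 acinar, 7 of 7 mast cell and granulocyte, 5 of 6 red cell, 4 of 6 macrophage, 4 of 8 fibroblast and 1 of 6 duct markers, with single arrays that went the other way. Among the mast cell and granulocyte markers, Mpo was well above background in 2 of 4 IUGR and 1 of 4 control channels. It thus entered the test only through the group where it was high. The acinar array medians were 0.40, 0.16, 1.55 and -0.24, and 2 of 9 acinar markers were above 0 on array 4. On array 1, 0 of 7 mast cell and granulocyte, 0 of 6 red cell and 1 of 7 endothelial markers were above 0. The array medians of the replication and mitosis genes lay between -0.11 and 0.02. The part of these cells in the ratios of the members was not tested.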

How the data were processed

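RNA of 4 IUGR and 4 control islet samples was compared on 4 two-colour Agilent arrays. Per the file headers, signals were extracted with Feature Extraction 10.10.1.1. The deposited scanner files hold mean signals and local backgrounds as intensity (spot brightness), besides flags. A table of deposited values gives 1 log2 ratio for each spot, which matched Cy5 over Cy3 (r from 0.986 to 0.998 across probes) and was used as an alternative. The submitters' processing notes name limma; settings are not given in the sources used here.

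With limma 3.58.1 and statmod 1.5.0 in R 4.3.3, signals were background-corrected (normexp, offset 50), outlying local backgrounds were given the channel median, and arrays were normalized by loess. Spots were averaged by probe, and the brightest probe stood for a gene. A gene was tested if measured on all 4 arrays and well above background in at least 2 of 4 channels of a group, which left 20012. The model held the IUGR contrast and a dye term (2 residual and 2.76 prior degrees of freedom), with Benjamini-Hochberg adjustment over all genes. Channel levels were scaled between arrays (Aquantile). The fit was tested on simulated data. The number of arrays limits the precision.

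Members and lists were chosen with earlier results of these data known. Genes were named by rule: the 5 smallest p in each direction, a shared sign on 4 arrays, the 2 smallest p per role group and pathway list, probes of opposite sign, and Mki67, Top2a, Cdk1, Ccnb1, Pcna, Mcm2, E2f1 and Foxm1. Other markers and list members are given as counts and ranges.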

Additional observations from a re-analysis of the deposited data

Results flagged for a closer look

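Ccnb1 had a ratio of 0.18 on array 1, apart from its ratios on arrays 2, 3 and 4 (-0.30, -0.39 and -0.31). The gap to the nearest of them was 0.841 of the whole range, above Dixon's critical value for 4 values. It was 1 of 32 groups of 4 values examined, and chance marks about 1 in 20.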

How the results depend on the processing

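Limma called 0 members under each of 18 alternatives, with the smallest member adjusted p between 0.0733 (without array 1) and 0.951 (without array 3). Over all genes the count stayed 0 except with median centring, which called 15 genes, all lower, and none (0) of them a member. Median centring also moved the median member ratio to -0.25, beside -0.05 for all genes. Leaving out 1 array at a time gave member medians from -0.08 to 0.01 and 0 calls throughout, and without array 1 limma had 10 members and 6199 genes at an unadjusted p under 0.05. Each such fit kept the dye term, so the array left alone in its dye orientation weighed as much as the other remaining arrays together. With no filter on dim probes, limma had 6 of 44 members and 3205 of 26412 genes at an unadjusted p under 0.05. Besides the fits leaving out an array, the other alternatives had 1 to 3 such members. These were, for example, 1 member beside 1169 of 20012 genes with median centring, and 2 beside 2877 with no dye term. Keeping outlying local backgrounds as measured gave 2 members beside 1480 genes. Of 23 named members with values, 14 kept 1 sign in every alternative, and 17 of 414 gene and setting pairs changed sign. The 14 ran from 0.14 to 0.54 for Birc5, -0.34 to -0.15 for Bub1b, -0.44 to -0.084 for Ccnb1, -0.45 to -0.061 for Cdk1, 0.065 to 0.60 for Cdt1, -0.38 to -0.12 for Kif11, 0.14 to 0.49 for Mcm6, -0.39 to -0.086 for Nuf2, -0.46 to -0.093 for Nusap1, -0.60 to -0.27 for Pbk, -0.77 to -0.20 for Pcna, 0.11 to 0.72 for Rrm1, -0.29 to -0.10 for Ttk and -0.23 to -0.026 for Tyms over the alternatives. Median centring gave -0.094 for Ccna2, 0.0066 for Cdc6, -0.18 for Foxm1 and -0.30 for Rrm2. The mean of all probes gave 0.047 for Cenpf, 0.083 for E2f1, 0.14 for Mcm2, 0.086 for Prc1, -0.052 for Rrm2 and 0.022 for Top2a. Channel brightness as a covariate, in place of the dye term, gave -0.011 for both Foxm1 and Rrm2. Leaving out 1 array gave ranges of -0.077 to 0.066 for E2f1, -0.026 to 0.016 for Mcm2, -0.078 to 0.17 for Foxm1 and -0.20 to 0.28 for Rrm2. The cause was not tested. Across genes, deviations of same-numbered samples from their group means had an r of -0.05, -0.29, 0.08 and -0.17. Same-numbered samples always carried opposite dyes, which pushes this r down, so it cannot show whether the numbers pair the samples. The main fit did not use the numbers as pairs. With the replicate number as a block, limma called 0 members and the median stayed -0.03. In that fit, 3 members and 2238 genes had an unadjusted limma p under 0.05.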
